A study of Mus musculus with 8 samples.

Results

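The chemokine Cxcl12 and its receptors Cxcr4 and Ackr3 were compared between hippocampi of intrauterine growth-restricted (IUGR) and sham mouse embryos at E15.5. These 3 genes were taken by their symbols from the 16397 genes of the deposited count table, and all 3 were among the 13707 protein-coding genes tested. Intrauterine growth restriction was induced in C57Bl/6J mice by maternal hypertension. Pregnant dams received a micro-osmotic pump that released U-46619, an analog of thromboxane A2, from E12.5, and sham dams received a pump with vehicle at the same stage. Both groups therefore carried the surgery and the pump, and no embryo carried a transgene or a mutation. RNA was sequenced from 4 IUGR hippocampi (T1-1, T1-3, T1-4 and T1-5) and 4 sham hippocampi (S1-4, S1-6, S3-1 and S3-4), with 1 library per sample. All IUGR names carry the prefix T1 and all sham names S1 or S3. What the prefix stands for is not given in the sources used here, so whatever it marks cannot be told apart from the treatment. The labels do not say whether the samples came from separate litters, so the p values measure the spread between these samples.

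Cxcl12 is a secreted chemokine that meningeal fibroblasts, Cajal-Retzius cells and vascular cells of the embryonic brain are known to express. Cxcr4 is the G protein-coupled receptor through which it attracts migrating cells, among them Cajal-Retzius cells, dentate granule cell precursors and cortical interneurons. Ackr3, formerly named Cxcr7, binds Cxcl12 without classical G protein signaling, recruits arrestins and removes the chemokine from the extracellular space, which shapes the gradient that Cxcr4 reads.

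Total counts ranged from 12919546 to 16672463 in IUGR hippocampi and from 11212632 to 15405748 in shams. Expression is given as CPM, counts per 1000000 counts after TMM scaling of the library sizes. The 8 libraries held RNA of Reln (268.0 to 1129 CPM), Prox1 (24.0 to 59.2 CPM) and Dlx1 (156.4 to 447.7 CPM). These were listed as markers of Cajal-Retzius cells, the dentate granule lineage and interneurons, in that order. In both groups Prox1 had the same sample order as Dlx1, so its RNA is not credited to granule cells alone. Xist, which is transcribed in females, was high in 3 of 4 IUGR and 1 of 4 sham hippocampi, so the groups also differed in sex makeup. Some choroid plexus and cortical hem genes were lower in IUGR hippocampi, as described after the 3 genes.

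Cxcl12 averaged higher in IUGR than in sham hippocampi, Cxcr4 was lower in each IUGR hippocampus than in any sham, and Ackr3 had nearly equal means. By edgeR's quasi-likelihood test, 0 of the 3 genes met the criteria for differential expression, an adjusted p not above 0.05 together with a 2-fold or greater change, up or down. Of all tested genes, 1.46% met them. Without adjustment, 2 of the 3 genes had a p under 0.05, against 11.1% of all tested genes, and by DESeq2 and limma-voom the number that met the criteria was also 0.

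The ligand gene Cxcl12 (ENSMUSG00000061353) lies on chromosome 6 of GRCm38 at chr6:117168535-117181367, on the plus strand, and GENCODE release M21 lists 3 protein-coding transcripts for it. In IUGR hippocampi it was at 26.3 CPM in T1-1, 130.0 CPM in T1-3, 9.78 CPM in T1-4 and 45.0 CPM in T1-5, from 351, 2115, 116 and 592 reads. In shams it was at 8.69 CPM in S1-4, 25.6 CPM in S1-6, 16.5 CPM in S3-1 and 9.27 CPM in S3-4, from 94, 296, 210 and 130 reads. The groups overlapped: T1-3 and T1-5 lay well above every sham, T1-1 lay just above the highest sham, and T1-4 lay among the lowest shams. Mean Cxcl12 was 52.8 ± 53.5 CPM in IUGR hippocampi and 15.0 ± 7.91 CPM in shams (SD, n = 4 each). The log2 fold change was 1.82 (standard error 0.67, 95% interval 0.33 to 3.30), which is 3.52-fold, with an adjusted p of 0.292 by edgeR's test over all tested genes. The exact two-sided permutation test of log2 CPM over the 8 samples gave p = 0.114. Without T1-3 the log2 fold change fell to 0.87 (adjusted p = 0.719 by edgeR), and without T1-4 it rose to 2.16 (adjusted p = 0.0975 by edgeR). In these whole-tissue RNA samples, more cells that express a gene and more RNA per cell cannot be told apart.

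Cxcl12 was among the most variable genes in both groups. Its coefficient of variation was 101.3% in IUGR and 52.7% in sham hippocampi, whereas the median of the 11907 tested genes that averaged 50 or more counts was 16.5% and 16.7%. These values lie at percentiles 98.8 and 97.9 of those genes. Between the lowest and the highest IUGR hippocampus Cxcl12 spanned 13.3-fold, and between the sham hippocampi it spanned 2.95-fold. The shams with prefix S1 averaged 17.2 CPM and those with prefix S3 averaged 12.9 CPM, both below the IUGR mean.

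The signaling receptor gene Cxcr4 (ENSMUSG00000045382) lies on chromosome 1 at chr1:128588199-128592293, on the minus strand, with 2 protein-coding transcripts. Its levels in IUGR hippocampi were 50.1 CPM in T1-1, 56.7 CPM in T1-3, 56.0 CPM in T1-4 and 41.4 CPM in T1-5, from 669, 922, 665 and 544 reads. Sham levels were 71.2 CPM in S1-4, 70.9 CPM in S1-6, 73.6 CPM in S3-1 and 107.9 CPM in S3-4, from 770, 819, 938 and 1513 reads. The groups did not overlap, a separation that 7.14% of all tested genes showed. Of the shams, 3 lay close together and S3-4 stood above them, while the IUGR hippocampi spanned 1.37-fold. The means were 51.1 ± 7.10 CPM in IUGR hippocampi and 80.9 ± 18.02 CPM in shams (SD, n = 4 each).

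The log2 fold change of Cxcr4 was −0.66 (standard error 0.17, 95% interval −1.05 to −0.28), a ratio of 0.631. edgeR's test gave an adjusted p of 0.106, so the difference did not pass after adjustment. The exact two-sided permutation test gave p = 0.0286, the smallest that 4 against 4 samples allow. DESeq2's Wald test gave an adjusted p of 0.0287 with a log2 fold change of −0.64, which passed on the adjusted p and missed on the fold criterion. limma-voom gave −0.65 with an adjusted p of 0.0879. Without S3-4 the log2 fold change was −0.49 (adjusted p = 0.262 by edgeR). Against the S1 shams alone it was −0.48 and against the S3 shams alone −0.81, with adjusted p values of 0.485 and 0.209 by edgeR. Cxcr4 was lower in IUGR hippocampi under each of the 20 alternatives run. As the groups did not overlap, leaving samples out could hardly turn its sign. The alternative with the adjusted p alone keeps the same fit.

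The atypical receptor gene Ackr3 (ENSMUSG00000044337) lies on chromosome 1 at chr1:90203980-90216751, on the plus strand, with 2 protein-coding transcripts. It was at 64.5 CPM in T1-1, 44.2 CPM in T1-3, 122.3 CPM in T1-4 and 77.4 CPM in T1-5, from 860, 719, 1451 and 1018 reads. In shams it was at 95.3 CPM in S1-4, 75.8 CPM in S1-6, 57.0 CPM in S3-1 and 72.8 CPM in S3-4, from 1031, 875, 726 and 1021 reads. The sham values lay inside the IUGR range, with T1-4 above and T1-3 below every sham. The means were 77.1 ± 33.1 CPM in IUGR hippocampi and 75.2 ± 15.7 CPM in shams (SD, n = 4 each). The log2 fold change was 0.04 (standard error 0.28, p = 0.903, adjusted p = 1.00 by edgeR), and the exact permutation test gave p = 0.943. The 95% interval of the difference, −0.58 to 0.65, runs from 0.667-fold to 1.57-fold, so these samples do not exclude a difference inside that range. Its sign turned under several alternatives, for example to −0.28 without T1-4 and to −0.04 with limma-voom, so that no direction is given for Ackr3.

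**Figure D1:**
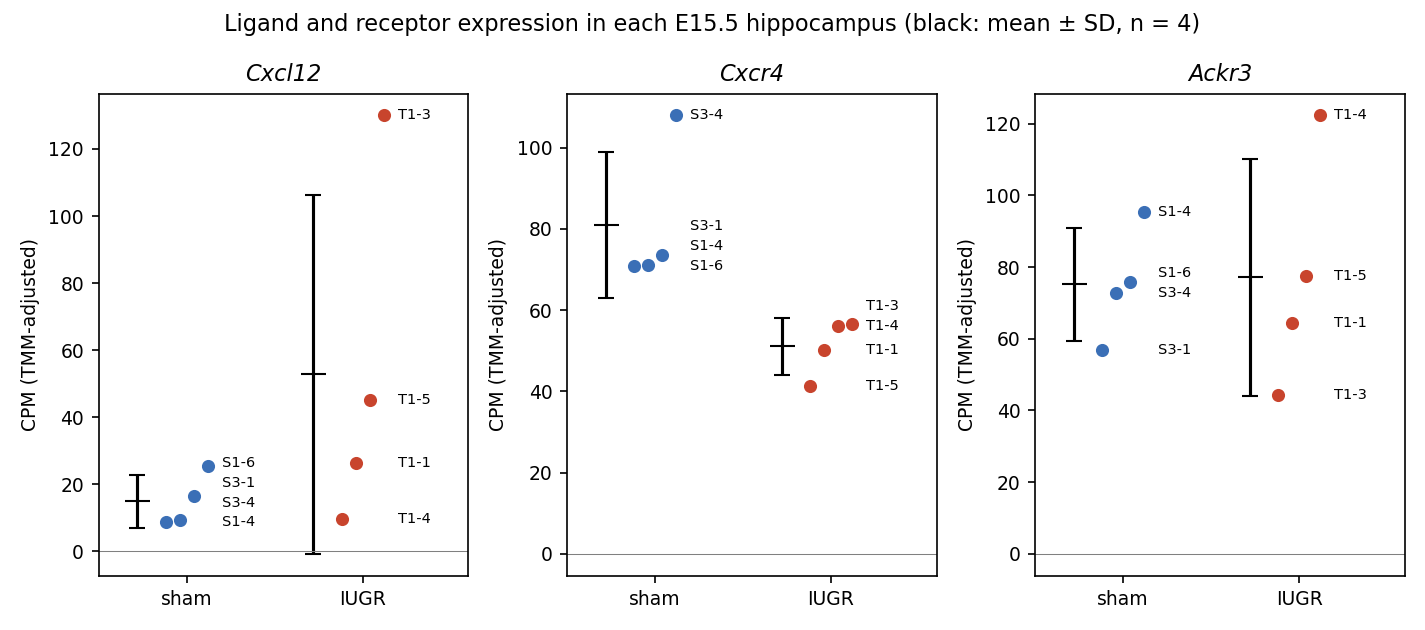
CPM of Cxcl12, Cxcr4 and Ackr3 (vertical axes, linear scale) in each sham (blue) and IUGR (red) hippocampus, with the mean ± SD of the group in black. T1-3 stands at 130.0 CPM of Cxcl12, the Cxcr4 values of the groups do not overlap, and T1-4 has the highest and T1-3 the lowest Ackr3.

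The order of the IUGR hippocampi differed between the genes. T1-3, which was highest for Cxcl12, was lowest for Ackr3, and T1-4, which was lowest for Cxcl12, was highest for Ackr3. Among shams, S1-6 was highest for Cxcl12, S3-4 for Cxcr4 and S1-4 for Ackr3. The coefficient of variation of Ackr3 was 42.9% in IUGR and 20.9% in sham hippocampi, at percentiles 92.6 and 64.5 of the same 11907 genes. That of Cxcr4 was 13.9% and 22.3%, at percentiles 38.0 and 68.9.

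Ratios within a sample set the ligand against each receptor. The log2 ratio of Cxcl12 to Cxcr4 was 1.20 in T1-3 and 0.12 in T1-5, whereas T1-1 had −0.93 and T1-4 had −2.50. Sham ratios were −3.01 in S1-4, −1.46 in S1-6, −2.15 in S3-1 and −3.52 in S3-4. In 3 IUGR hippocampi the ratio was above every sham, and that of T1-4 lay among the shams. The group means differed by 2.01 on the log2 scale (IUGR −0.53 ± 1.58, sham −2.54 ± 0.91, SD, n = 4 each), with an exact permutation p of 0.0857. The Cxcl12 to Ackr3 ratio ran from −3.62 to 1.55 in IUGR and from −3.43 to −1.56 in sham hippocampi, with a difference in means of 1.40 (exact permutation p = 0.257). It was 0.53 without T1-3 (exact permutation p = 0.571) and 2.26 without T1-4 (exact permutation p = 0.0286). The ratio between the receptors, Cxcr4 to Ackr3, ran from −1.12 to 0.36 in IUGR and from −0.42 to 0.57 in shams. Its means differed by −0.61 (exact permutation p = 0.171), by −0.25 against the S1 shams alone, by −0.97 against the S3 shams alone and by −0.41 without T1-4. After Benjamini-Hochberg adjustment over the 3 ratios, each had an adjusted p of 0.257.

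Per length, levels can be set side by side between the genes. In reads per kilobase of the merged exons, scaled as CPM (RPKM), shams had 44.7 ± 9.97 for Cxcr4, 22.5 ± 4.70 for Ackr3 and 1.84 ± 0.97 for Cxcl12 (SD, n = 4). With this length the ranges of the 3 genes did not overlap among shams, and in each sham the order was Cxcr4, Ackr3, Cxcl12. In IUGR hippocampi the values were 28.2 ± 3.93 for Cxcr4, 23.0 ± 9.88 for Ackr3 and 6.46 ± 6.54 for Cxcl12 (SD, n = 4). There the receptors overlapped, at 22.9 to 31.3 for Cxcr4 and 13.2 to 36.5 for Ackr3, and Cxcl12 in T1-3 reached 15.9, above the lowest Ackr3 value. The exon lengths used were 8176 bases for Cxcl12, 1808 for Cxcr4 and 3348 for Ackr3. They join all transcripts, and the order rests on this choice. Divided by the shortest annotated protein-coding transcript instead (1878, 902 and 404 bases), Ackr3 was above Cxcr4 in every sample, at 141.0 to 235.9 against 78.6 to 119.6 in shams and 109.4 to 302.7 against 45.9 to 62.8 in IUGR hippocampi. On that scale Cxcl12 in T1-3, at 69.2, was above every IUGR Cxcr4 value. The shortest transcripts are the far end of the choice. The longest protein-coding transcripts, 1805 bases for Cxcr4 and 3065 for Ackr3, are close in length to the merged exons. The counts do not tell which transcripts were present, so they do not settle the order of the receptors apart from the length used. No other annotated gene overlaps any of the 3.

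The log2 fold change of each gene moved with the samples that entered the comparison. Under the 20 alternatives, that of Cxcl12 ranged from 0.87 to 2.23 and that of Cxcr4 from −0.81 to −0.48, each with 1 sign. With the level of Xist as a covariate, a model chosen after seeing the data, the values were 1.23 for Cxcl12, −0.60 for Cxcr4 and −0.06 for Ackr3.

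**Figure D2:**
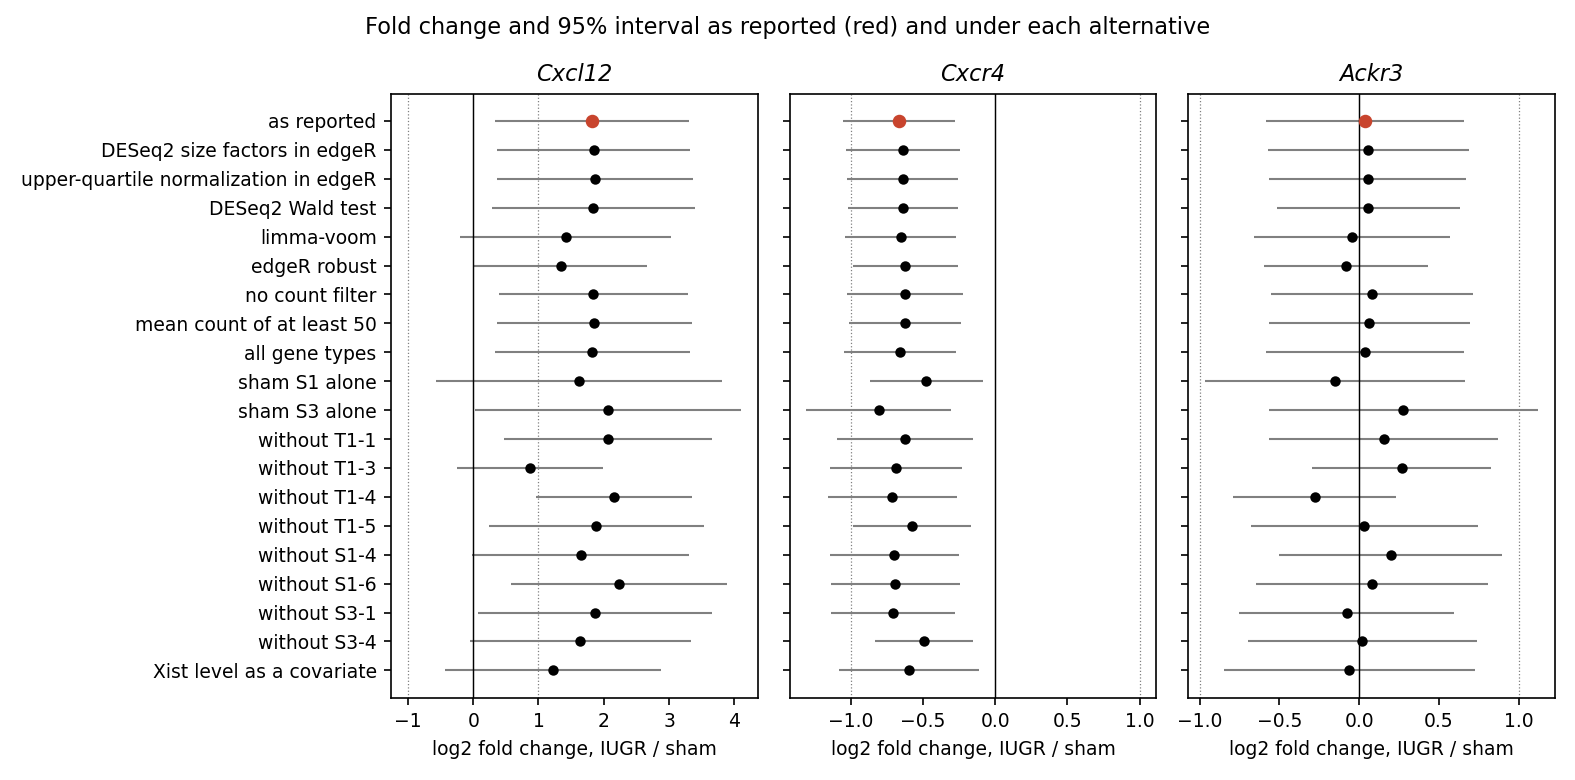
log2 fold change of each gene, IUGR over sham (horizontal axes), with its 95% interval, as reported (red) and under each alternative listed on the vertical axis. Dotted lines mark a log2 fold change of 1 in either direction. Cxcl12 falls to 0.87 without T1-3, Cxcr4 stays below 0, and Ackr3 lies on both sides of 0.

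Meningeal fibroblasts, the cells of the membranes around the brain, are a known source of Cxcl12, and their markers moved with it across the IUGR hippocampi. The summed level of 12 markers was 421.1 CPM in T1-1, 2865 CPM in T1-3, 89.8 CPM in T1-4 and 801.7 CPM in T1-5. Shams had 422.1 CPM in S1-4, 580.4 CPM in S1-6, 386.9 CPM in S3-1 and 287.5 CPM in S3-4. As for Cxcl12, T1-3 was highest by far. T1-4 lay below every sham for the marker sum, whereas its Cxcl12 was above the lowest sham. The collagen gene Col3a1 ran from 22.5 to 1310 CPM in IUGR hippocampi and from 89.1 to 172.5 CPM in shams. Ranges for Aldh1a2, which makes retinoic acid in the meninges, were 0.843 to 48.7 CPM and 1.21 to 10.04 CPM. All 12 markers were highest in T1-3, against 17.2% of all tested genes, and 11 of 12 followed the IUGR order of Cxcl12, against 8.70% of all tested genes. In shams 0 of 12 followed its order, against 1.57%. Other lists also peaked in T1-3, namely 9 of 12 endothelial, 6 of 9 Cajal-Retzius and 8 of 10 microglia markers, and 5, 4 and 3 markers of these lists followed the IUGR order of Cxcl12. So peaked 4 of 7 other chemokine receptor genes, 4 of 7 genes for other Ackr3 ligands and their receptors and 3 of 6 pericyte markers. Only 1 of 8 radial glia and 0 of 10 granule lineage markers did. The IUGR order of Cxcl12 was also that of 5 of 10 choroid plexus and 4 of 10 cortical hem genes.

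None of the 12 meningeal markers was called in either direction by edgeR's test, which called 1.46% of all tested genes. Each had a positive log2 fold change, from 0.14 to 1.78 (Slc6a13), with a median of 1.12 against −0.02 over all tested genes. The median rested on T1-3, without which it was 0.0028, and it was 0.49 with limma-voom, 0.43 with edgeR's robust fit and 0.50 with Xist as a covariate. The smallest adjusted p by edgeR was 0.517. No marker had an unadjusted p under 0.05, against 11.1% of all tested genes, and none was called by DESeq2 or limma-voom. Cxcl12 per 1000 CPM of the summed markers, a ratio chosen after the values were seen, was 109 in T1-4 and 62.5 in T1-1, whereas T1-5 had 56.2 and T1-3 had 45.4. It was 20.6 in S1-4, 44.2 in S1-6, 42.6 in S3-1 and 32.2 in S3-4. On this scale each IUGR hippocampus lay above every sham, with T1-3 and S1-6 the closest to each other, and no test was run. The part of the meninges in the Cxcl12 difference was not tested.

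**Figure D3:**
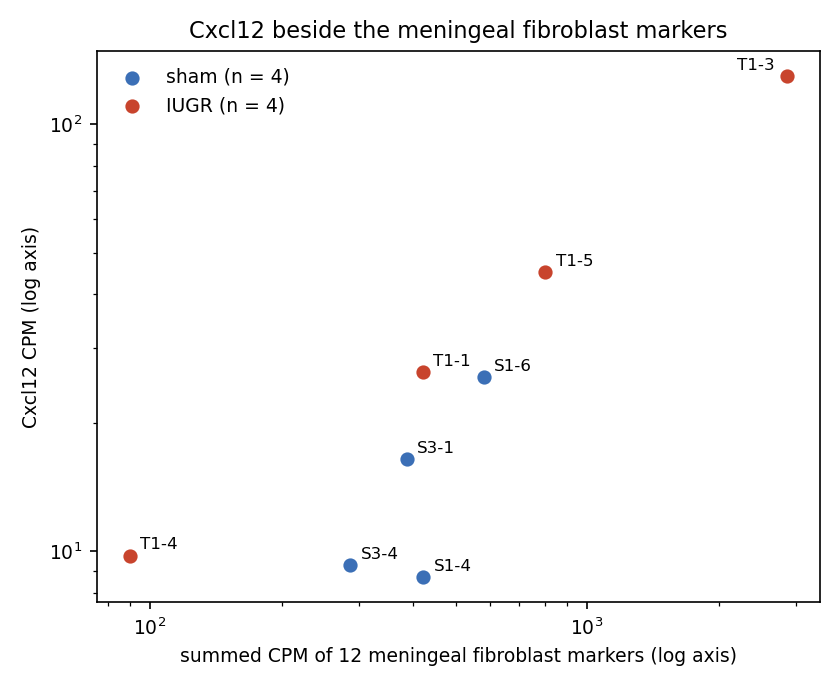
CPM of Cxcl12 (vertical axis, log scale) against the summed CPM of 12 meningeal fibroblast markers (horizontal axis, log scale) in each sham (blue) and IUGR (red) hippocampus. T1-3 is highest on both axes, at 130.0 and 2865 CPM, and T1-4 has the lowest marker sum, 89.8 CPM.

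Other cells known to express Cxcl12 or its receptors, and their neighbors, had no marker that met the criteria, either by edgeR's test or by DESeq2 or limma-voom. Unadjusted p values under 0.05 were found for 1 Cajal-Retzius marker, 1 interneuron marker, 2 granule lineage markers and 0 radial glia markers, against 11.1% of all tested genes. Of 9 Cajal-Retzius markers, 0 were called, against 1.46% of all tested genes, and 6 had a positive log2 fold change. Reln, the extracellular glycoprotein that these cells secrete, ran from 425.9 to 1129 CPM in IUGR hippocampi and from 268.0 to 832.5 CPM in shams (log2 fold change 0.37, adjusted p = 0.963 by edgeR). Calb2 had 0.87 (adjusted p = 0.306) and Trp73 −0.67 (adjusted p = 0.8003). Their summed level was highest in T1-3 (1326 CPM) and S3-4 (1028 CPM), and lowest in S1-4 (340.4 CPM).

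Of 15 interneuron markers, 0 were called, against 1.46% of all tested genes, and their median log2 fold change was 0.11. The median was −0.25 against the S1 shams alone and 0.77 against the S3 shams alone. Dlx1, a homeobox gene of these cells, had 0.11 (adjusted p = 1.00 by edgeR), and the peptide gene Sst had 1.64 (adjusted p = 0.4657). Among 10 markers of the dentate granule lineage, 0 were called, 7 had a negative log2 fold change and the median was −0.27. This median turned to 0.06 without S3-4 and to 0.24 against the S1 shams alone, and was −0.71 against the S3 shams alone, so the list had no stable direction. Prox1, which specifies granule cells, had −0.57 (adjusted p = 0.368 by edgeR), and Lef1, a Wnt pathway transcription factor gene, had −0.67 (adjusted p = 0.623). The most abundant per length, Neurod6, had −0.09 (adjusted p = 1.00). For radial glia, 0 of 8 markers were called, with a median of −0.04.

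Vascular and immune cells were compared in the same way. Of 12 endothelial markers, 0 were called, against 1.46% of all tested genes, 10 had a positive log2 fold change and the median was 0.54. Cdh5, the cadherin of endothelial junctions, had 0.77 (adjusted p = 0.491 by edgeR), and Cldn5, which encodes a tight junction protein, had 0.59 (adjusted p = 0.562). The 6 pericyte markers and the 10 microglia markers also had 0 calls, with medians of 0.32 and 0.17. The pericyte median was 0.19 without S3-4, 0.20 without T1-3 and 0.11 against the S1 shams alone, and the microglia median was −0.08 without T1-3. Without adjustment, 4 endothelial markers, 1 pericyte marker and 0 microglia markers had a p under 0.05, against 11.1% of all tested genes.

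The epithelium of the choroid plexus and the cortical hem, the signaling center beside the hippocampal primordium, were the lists with called genes. In the choroid plexus list 3 of 10 tested genes fell in IUGR hippocampi by edgeR's test, namely Folr1, Otx2 and Cldn2, with log2 fold changes of −4.16, −1.28 and −3.76. In the cortical hem list 6 of 10 fell, namely Lmx1a, Wnt3a, Wnt2b, Rspo1, Rspo2 and Rspo3, with log2 fold changes between −3.09 and −1.34. None rose in either list. Over all tested genes 1.46% were called, 186 lower and 14 higher. The number of calls was 0 in both lists when the S1 or the S3 shams were kept alone and with Xist as a covariate. Without T1-1, S1-4, S3-1 or S3-4 the choroid plexus count was 0, without S1-6 it was 1, and with limma-voom it was 8. The hem count was 2 without T1-4 and 3 without T1-1, S1-4 or S3-4. The median log2 fold changes, −3.07 and −1.93, stayed between −4.32 and −2.67 and between −2.40 and −1.71 under the 20 alternatives. Summed levels were 55.8 to 1310 CPM in IUGR hippocampi and 5518 to 12170 CPM in shams for the choroid plexus list, and 49.0 to 203.5 CPM against 250.8 to 421.4 CPM for the hem list. The choroid plexus sum takes in all 12 listed genes, and in shams most of it was Ttr, which was not tested. Ttr ran from 10.2 to 966.1 CPM in IUGR hippocampi and from 4550 to 10850 CPM in shams. T1-3, with the most Cxcl12, also had the highest sums of both lists in the IUGR group, and T1-4 the lowest. By mean log2 CPM of the tested genes, T1-5 was highest for choroid plexus (3.91 against 3.89 in T1-3), with T1-4 still lowest. For the hem T1-1 was lowest (1.62 against 1.70 in T1-4), with T1-3 still highest. The part of both lists in the values of Cxcl12, Cxcr4 and Ackr3 was not tested.

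**Figure D4:**
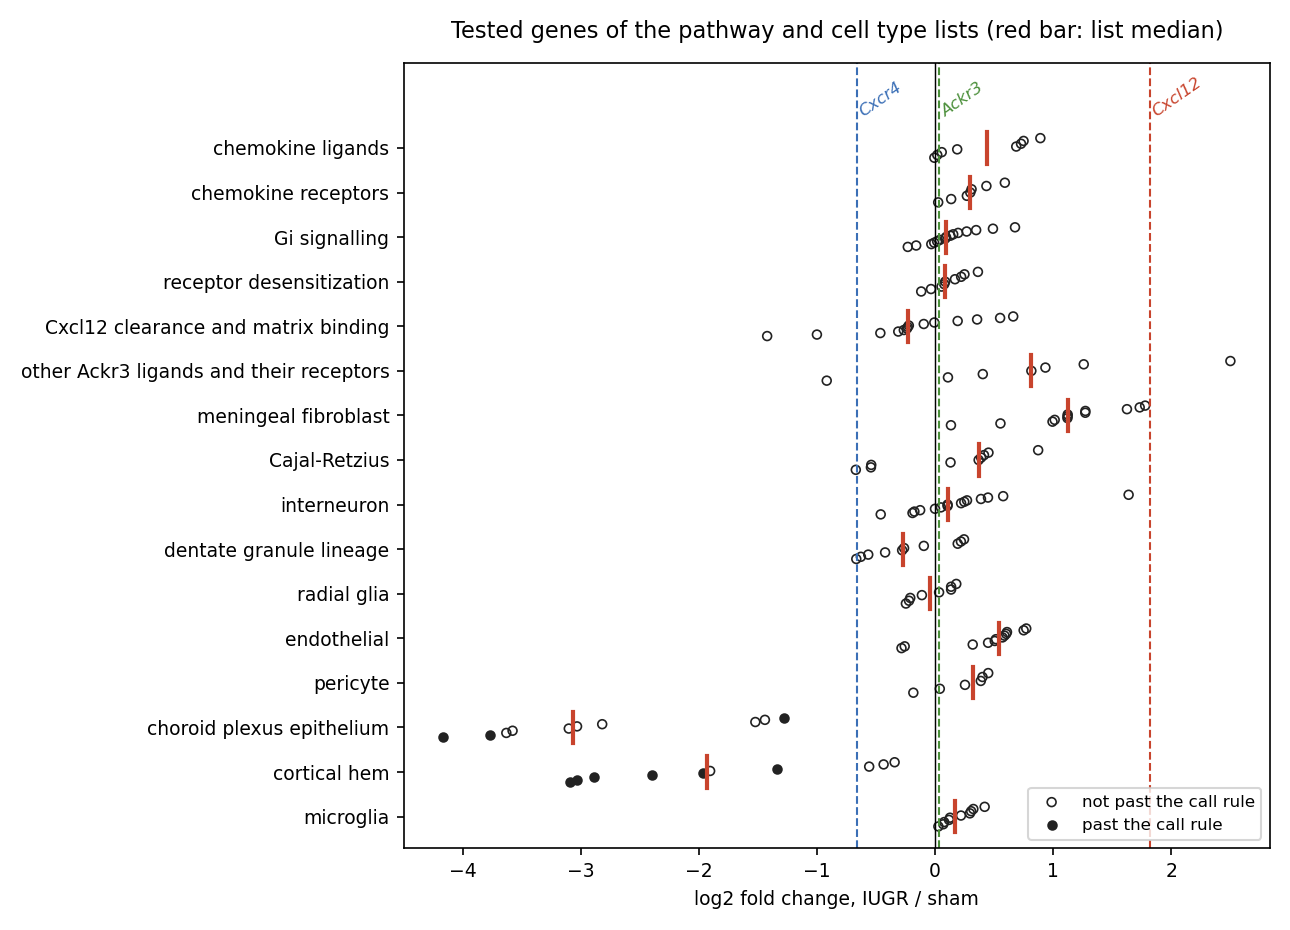
log2 fold change, IUGR over sham (horizontal axis), of each tested gene of the 6 pathway and 10 cell type lists (vertical axis), filled where the gene met the criteria for differential expression. Red bars mark the list medians and dashed lines Cxcr4, Ackr3 and Cxcl12, at −0.66, 0.04 and 1.82. Filled points appear in the choroid plexus epithelium and cortical hem lists.

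Few other chemokine genes reached the table. Of 27 further ligand genes, 10 were in the table and 8 could be tested, and of 21 further receptor genes, 7 were in the table and tested. None was called in either list by edgeR, DESeq2 or limma-voom, and 1 ligand gene (Ccl27a) and 0 receptor genes had an unadjusted p under 0.05. Over all tested genes these shares were 1.46% and 11.1%. Mif, a cytokine that can also bind Cxcr4, ran from 54.8 to 64.9 CPM in IUGR hippocampi and from 48.6 to 68.9 CPM in shams (log2 fold change 0.02, adjusted p = 1.00 by edgeR). Cxcl14 had 0.89 (adjusted p = 0.517) and Ccl27a 0.75 (adjusted p = 0.384). Cx3cr1, the fractalkine receptor of microglia, was the most abundant of the other receptors at 5.39 to 20.7 CPM in IUGR hippocampi and 9.52 to 11.1 CPM in shams. It had a log2 fold change of 0.30 (adjusted p = 1.00 by edgeR). The medians of the 2 lists were 0.44 and 0.30, and both were 0.09 without T1-3.

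Downstream of Cxcr4, 0 of 15 genes of inhibitory G protein signaling were called by edgeR, DESeq2 or limma-voom. Of all tested genes edgeR called 1.46%. Without adjustment 1 of the 15 had a p under 0.05 by edgeR, against 11.1% of all tested genes. The median log2 fold change of the 15 was 0.09, with 0.02 without S3-1 and 0.17 without S1-6. Gng2, a gamma subunit gene and the most abundant of them per length, had 0.13 (adjusted p = 1.00 by edgeR). Gnaz, the alpha subunit of a related G protein, ran from 43.3 to 62.0 CPM in IUGR hippocampi and from 26.6 to 38.9 CPM in shams. Its groups did not overlap, as for 7.14% of all tested genes, and its log2 fold change was 0.68 (adjusted p = 0.0891 by edgeR). Of 9 genes that desensitize the receptors, 0 were called by the same tools and 0 had an unadjusted p under 0.05, with a median of 0.09. Among them the receptor kinase genes Grk6 and Grk3 had −0.03 (adjusted p = 1.00 by edgeR) and 0.25 (adjusted p = 0.894), and Rgs4, which speeds the inactivation of G proteins, had 0.36 (adjusted p = 0.971).

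Genes that bind, cut or present Cxcl12 in the extracellular matrix made up a list of 14, of which 0 were called and 10 had a negative log2 fold change, with a median of −0.23 that was −0.03 without S1-6 and −0.09 without T1-1. Sdc4, a heparan sulfate proteoglycan, ran from 6.66 to 13.6 CPM in IUGR hippocampi and from 18.2 to 23.9 CPM in shams, without overlap, as for 7.14% of all tested genes. Its log2 fold change was −0.9996 (standard error 0.22, adjusted p = 0.0571 by edgeR), just outside both criteria. The glypican gene Gpc3 had −1.42 (adjusted p = 0.385) and ran from 9.69 to 97.2 CPM in IUGR hippocampi and from 82.1 to 126.9 CPM in shams. Gpc1, the most abundant of the list per length, had −0.24 (adjusted p = 0.955), and Dpp4, a peptidase that inactivates Cxcl12, had 0.66 (adjusted p = 0.816). By edgeR 2 genes of this list, Sdc4 and Gpc3, had an unadjusted p under 0.05, near the 11.1% of all tested genes, of which 1.46% were called. With limma-voom 1 gene of the list was called, and without T1-3 edgeR called 2.

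Ackr3 also takes up adrenomedullin and opioid peptides. Of 7 genes for these ligands and their receptors, 0 were called, against 1.46% of all tested genes. A positive log2 fold change was found for 6 of them, and the median was 0.82. With Xist as a covariate this median was 0.0086, and against the S1 shams alone it was 0.34. Pnoc, the precursor of nociceptin, ran from 4.65 to 14.8 CPM in IUGR hippocampi and from 0.143 to 3.72 CPM in shams. Its groups did not overlap, as for 7.14% of all tested genes, and its log2 fold change was 2.50 (standard error 0.73, adjusted p = 0.151 by edgeR). Adm, the adrenomedullin gene, ran from 2.34 to 3.88 CPM against 1.14 to 1.76 CPM (log2 fold change 0.94, adjusted p = 0.193). Calcrl, which encodes the adrenomedullin receptor, had −0.92 (adjusted p = 0.448), and its partner Ramp3 had 1.26 (adjusted p = 0.308). Without adjustment 4 of the 7 had a p under 0.05 by edgeR's test, against 11.1% of all tested genes. With DESeq2 or edgeR's robust fit 1 gene of this list was called, and with limma-voom 0.

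The 5 genes nearest to each of the 3 were found by Pearson r of log2 CPM over the 8 samples, with the mean of each group subtracted, among the 11907 genes that averaged 50 or more counts. The 8 points share libraries and include T1-3 and T1-4, and r is a description. For Cxcl12 they were Adcy7, Rxfp3, Hspa5, Aldh1a2 and Slc6a13, with r from 0.965 to 0.987. Aldh1a2 and Slc6a13 belong to the meningeal list, and Rxfp3, a relaxin-family receptor gene, ran from 3.03 to 9.83 CPM in IUGR hippocampi and from 1.28 to 2.34 CPM in shams (log2 fold change 1.75, adjusted p = 0.0567 by edgeR). For Cxcr4 they were Jagn1, Cd9, Dio2, Ei24 and Htatsf1, with r from 0.920 to 0.959. Dio2, the deiodinase that activates thyroid hormone, had −1.04 (adjusted p = 0.173) and ran from 6.54 to 10.51 CPM in IUGR and from 11.5 to 30.4 CPM in shams. For Ackr3 they were Alms1, Chml, Neil3, Tbc1d31 and Cntrl, with r from 0.955 to 0.972 and log2 fold changes from −0.19 to 0.13. No gene was near to more than 1 of the 3.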

How the data were processed

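Hippocampal RNA of 4 IUGR and 4 sham embryos was depleted of ribosomal RNA, and stranded libraries were sequenced as single reads. The submitters' processing notes name Novoalign 2.8 and mm10 (GRCm38); the counting program, annotation release and strand setting are not given in the sources used here. The deposited values are the authors' raw counts per gene, not normalized. Identifiers were matched to GENCODE release M21 (16124 of 16397). Protein-coding genes averaging from 10 to below 50000 counts were tested by edgeR 4.0.16 under R 4.3.3 (TMM, quasi-likelihood test, Benjamini-Hochberg adjustment over 13707 genes). log2 CPM used a prior count of 2. With 4 samples per group, an exact permutation test cannot give a p under 0.0286. Alternatives were DESeq2 1.42.0, limma-voom (limma 3.58.1), edgeR's robust fit, other size factors, filters and gene types, the adjusted p alone, each sample left out and either sham prefix alone. In simulated IUGR against sham counts with 200 of 13707 genes changed by a log2 fold change of 2, edgeR found 197 and called 6 unchanged genes. The counts of each of the 12 within-group pairs of samples differed by more than sampling noise.

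The 3 genes and the 16 gene lists were chosen with earlier results of these data known. Genes named are the 3, the called genes of each list or otherwise at most 4 from those ranked 1 to 4 in the list by count per kilobase or by size of change, and the 5 nearest genes by correlation.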

Additional observations from a re-analysis of the deposited data

Results flagged for a closer look

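In shams, Cxcr4 in S3-4 stood apart at 107.9 CPM, with the other 3 shams between 70.9 and 73.6 CPM. The summed level of the 7 genes for other Ackr3 ligands and their receptors was set apart in S1-4, at 98.3 CPM against 81.8 to 84.4 CPM in the other shams. These are 2 of the 44 groups of 4 samples examined for an outlying sample (Dixon's criterion), of which about 1 in 20 would be marked by chance.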

How the results depend on the processing

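None of the 3 genes met the call criteria under any of the 20 alternatives. Cxcl12 and Cxcr4 kept their signs in all of them, with each sample left out ranging from 0.87 to 2.23 and from −0.71 to −0.49 on the log2 scale. For Cxcr4, whose groups did not overlap, leaving samples out could hardly turn the sign. The sign of Ackr3 reversed in 6, namely limma-voom (−0.045), edgeR's robust fit (−0.084), the S1 shams alone (−0.15), without T1-4 (−0.28), without S3-1 (−0.08) and with Xist as a covariate (−0.063), and it ranged from −0.28 to 0.27 with each sample left out. With each sample left out, the Cxcl12 to Cxcr4 difference ranged from 1.43 to 2.67 and the Cxcl12 to Ackr3 difference from 0.53 to 2.26. Both reached an exact permutation p of 0.0286 without T1-4, the smallest that 3 against 4 samples allow, and the cause was not tested. Of 320 counts of called genes over lists and alternatives, 21 moved by more than 1.5 times, in 4 lists. List medians moved with the samples kept: over the alternatives they ranged from 0.08 to 0.54 for Cajal-Retzius (0.09 without T1-3), −0.25 to 0.77 for interneuron, −0.08 to 0.08 for radial glia, 0.36 to 0.72 for endothelial, 0.07 to 0.59 for chemokine ligand, 0.09 to 0.49 for chemokine receptor and 0.07 to 0.20 for desensitization genes, the last highest without T1-5. No paired analysis was possible because the labels give no number that ties an IUGR to a sham sample. Cxcl12, with the lowest mean count of the 3 genes over the 8 samples, had at least 94 reads in each sample, and with 4 samples per group the spread between samples set the width of the intervals.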
